A study of Mus musculus with 36 samples.

Results

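The genes described here are Gpihbp1, Fabp4, Cd36, Lpl, Meox2, Tcf15 and Cd300lg, 7 of the 20720 nuclear genes counted, which were picked by symbol for their place in the handling of fatty acids by heart capillaries. Expression was measured by SORT-seq, in which single cells are sorted into the wells of a plate and transcripts are counted at their 3' end by unique molecular identifiers (UMIs). The 36 plates held cells of the infarct area in the left ventricle or, for sham hearts, of the matching region. They were taken from male C57BL/6 mice aged 8 weeks. The surgeries were sham (4 plates at day 1 and 8 at day 14), ischemia-reperfusion (IR, where the left anterior descending artery was tied for 1 hour and released, with 9 plates at day 1, 7 at day 3 and 3 at day 14) and myocardial infarction (MI, where the artery stayed tied, with 5 plates at day 3). Since no sham group of day 3 was used here, the day 3 groups were set against both sham groups with equal weight. The MI plates carry their own treatment protocol in the labels, which name no library batch. Permanent ligation therefore cannot be told apart from any batch that the MI plates may share.

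Heart muscle burns mostly fatty acids, and much of that supply arrives in the blood as triglyceride inside lipoprotein particles. Lipoprotein lipase (LPL) is made largely by cardiomyocytes, is carried to the capillary surface by GPIHBP1 and there frees fatty acids from the particles, after which the scavenger receptor CD36 and the binding protein FABP4 take part in their passage through the endothelial cell. MEOX2, a homeobox factor, and TCF15, a basic helix-loop-helix factor, act together in heart endothelium to raise fatty acid uptake genes such as Cd36 and Fabp4, whereas CD300LG is a surface glycoprotein of capillary and venular endothelium with mucin-like features.

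On GRCm38 (GENCODE vM21) all 7 genes are protein coding. Gpihbp1 lies on chromosome 15 from 75596628 to 75599481 and Fabp4 on chromosome 3 from 10204088 to 10208576. Cd36 spans chromosome 5 from 17781690 to 17888801 and Lpl chromosome 8 from 68880491 to 68907448. Meox2 lies on chromosome 12 from 37108540 to 37179534, Tcf15 on chromosome 2 from 152143561 to 152149097 and Cd300lg on chromosome 11 from 102041509 to 102055620. Fabp4 and Cd36 are on the minus strand and the other 5 on the plus strand.

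Basic helix-loop-helix factors such as TCF15 bind, with partners, to the E-box CANNTG. Of the 7 genes, 2 had an entry in the RefSeq promoter table (250 bases before to 50 after a start site, GRCm38.p6), and both windows held this motif upstream of the start. The matches are shown with 12 bases on each side and the E-box in capitals, for Cd36 at chr5:17836029-17836058 on the minus strand and for Meox2 at chr12:37108446-37108475 on the plus strand. The E-box itself begins 150 bases before the start site of the Cd36 window and 82 bases before that of the Meox2 window. The start site of the Cd36 window lies inside the gene span given above, and a further Cd36 match, CAAATG, which begins at base 2 after that site, is not shown.
Cd36: gctacactccagCATCTGgaataacaatta
Meox2: ggagggagtttgCATGTGgtcagcgctggg
The motif was present in 72.3% of 32851 mouse promoter windows of the same length searched on both strands, so these matches describe the windows and do not set them apart.

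A total of 3146 wells held at least 1000 UMIs outside mitochondrial and spike-in transcripts, with a median of 2217 to 3230 UMIs per well in the sham and IR groups and 13120 in MI. Before the results, the Sham day 14 plates 2 and 7 were found to hold the same cells and were counted as 1 plate. By likeness to the same well of another plate, 46 further wells were flagged as repeats. Of these, 20 were among the kept wells and none was endothelial-like. The 20 wells stayed in the levels and main fits and were left out only in an alternative. Wells were clustered without the 7 genes and clusters named from marker genes. With Sham day 14 plate 2 left out, this gave 364 endothelial-like, 1198 cardiomyocyte-like, 622 macrophage-like and 235 fibroblast-like wells. In the endothelial-like wells all 10 endothelial markers were present, from Cldn5 at 247 CPM (counts scaled to 1000000 UMIs) to Pecam1 at 1095 CPM, and of the adipocyte markers Adipoq, Cidec, Cfd and Lep had 0 UMIs and Plin1 had 1. Counts were summed per plate and class, and plates with at least 5 wells of a class were tested with edgeR's quasi-likelihood test, with Benjamini-Hochberg adjustment over all genes tested and a threshold of 0.05. By the study's methods a condition had fewer mice than MI has plates, so some plates share a mouse that cannot be named here, and p-values over plates may be too small.

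Of the 7 genes, 6 had most of their UMIs or their highest level in endothelial-like wells, and Lpl was a cardiomyocyte transcript by level. Because each transcript is counted once at its end, CPM values were compared between genes without division by length, and all levels in the next sentences are pooled CPM over wells. Fabp4, the fatty acid binding protein, reached 5313 CPM in endothelial-like wells, against 174 CPM in cardiomyocyte-like, 227 CPM in macrophage-like and 46.1 CPM in fibroblast-like wells. Gpihbp1, the capillary anchor of LPL, stood at 776 CPM in endothelial-like wells, which held 84.4% of its UMIs, and at 16.3 CPM in cardiomyocyte-like wells. Cd300lg stood at 532 CPM against 29.8 CPM in the same classes.

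The transcription factors were the scarcest of the 7. Tcf15 reached 177 CPM in endothelial-like wells, which held 80.6% of its UMIs, and 9.29 CPM in cardiomyocyte-like wells. Meox2 reached 107 CPM and 1.27 CPM, with 72.5% of its UMIs in endothelial-like wells. In 10 mural-like wells, which are not plotted, Tcf15 stood at 249.3 CPM on 20 UMIs and Meox2 at 137 CPM on 11 UMIs. Cd36, the fatty acid receptor, was shared between classes, at 2473 CPM in endothelial-like, 1518 CPM in cardiomyocyte-like and 479 CPM in macrophage-like wells. Lpl, the lipase itself, stood at 10579 CPM in cardiomyocyte-like wells, which held 73.7% of its UMIs, at 1201 CPM in endothelial-like wells and at 755 CPM in macrophage-like wells.

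The share of wells with a UMI was read after thinning each well to 1000 UMIs, since classes differed in depth. In endothelial-like wells it was 91.5% for Fabp4, 79.1% for Cd36, 65.4% for Lpl, 54.7% for Gpihbp1, 52.5% for Cd300lg, 28.3% for Tcf15 and 12.1% for Meox2. Neutrophil-like wells, taken as a class that should lack these genes, had a UMI in 16.4% of wells for Fabp4, 12.6% for Lpl, 10.1% for Cd36, 6.29% for Gpihbp1, 3.77% for Cd300lg, 1.26% for Tcf15 and 0 for Meox2. Of the 159 neutrophil-like wells 107 were from IR day 1, 51 from MI and 1 from Sham day 1, the first 2 being the groups with the least cardiomyocyte RNA in endothelial-like wells, so these shares give no background for the other groups. The unthinned median depth was 4100 UMIs in endothelial-like and 2087 UMIs in neutrophil-like wells. Every gene was thus detected in a larger share of endothelial-like than of neutrophil-like wells. A cluster of 75 wells without a name also carried Lpl at 8788 CPM and Cd36 at 1632 CPM, and took 7.41% of kept wells at Sham day 1, 4.62% at IR day 14 and none in MI.

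**Figure D1:**
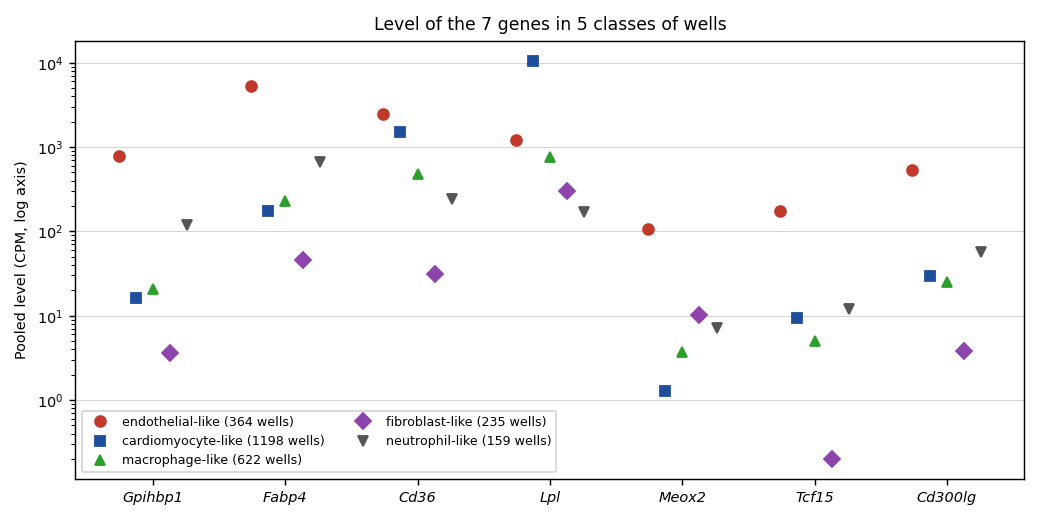
Pooled level of each of the 7 genes (CPM, log axis) in endothelial-like, cardiomyocyte-like, macrophage-like, fibroblast-like and neutrophil-like wells. Of these 5 classes, Fabp4, Gpihbp1, Cd300lg, Tcf15 and Meox2 are highest in endothelial-like wells, and Lpl is highest in cardiomyocyte-like wells at 10579 CPM.

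At day 1 after IR, transcripts of the endothelial fatty acid route were lower in endothelial-like wells for 5 of the 7 genes: Lpl, Tcf15, Cd300lg, Cd36 and Fabp4. The largest differences were those of Tcf15, a log2 fold change of -2.90, and of Lpl, of -2.08. Of all 3386 genes tested, 9.27% were lower at day 1, and the median log2 fold change was 0.01. Gpihbp1 and Meox2 did not pass the test. The comparison asks how the vessel wall of the reperfused area differed from that of sham hearts of the same day, over 4 sham plates of 17 to 32 endothelial-like wells and 8 IR plates of 5 to 12 wells.

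For Lpl, the Sham day 1 plates read 2776, 2778, 3504 and 3819 CPM in endothelial-like wells. The 8 IR day 1 plates ran from 570.5 to 1214 CPM with a median of 747 CPM. All IR plates therefore lay below all sham plates, at a log2 fold change of -2.08 ± 0.26 (SE, edgeR adjusted p = 2.43e-06). Tcf15 read 325, 780, 434 and 314 CPM in the sham plates. It ran from 41.9 to 101 CPM, median 57.1 CPM, in the IR plates. The groups again did not overlap, and the log2 fold change was -2.90 ± 0.32 (edgeR adjusted p = 6.28e-07).

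Cd300lg read 1153, 1429, 1226 and 1201 CPM in the Sham day 1 plates and from 95.1 to 1073 CPM, median 444 CPM, in the IR day 1 plates. No IR plate reached a sham plate, although 1 came close, and the log2 fold change was -1.60 ± 0.31 (edgeR adjusted p = 5.96e-04). Cd36 read 4026, 7955, 7088 and 6492 CPM in sham and from 1141 to 4487 CPM, median 2394 CPM, in IR. Here 7 of the 8 IR plates were below all sham plates, and the log2 fold change was -1.38 ± 0.31 (edgeR adjusted p = 0.0019). Fabp4 read 9595, 11133, 12380 and 8580 CPM in sham and from 2187 to 6847 CPM, median 5336 CPM, in IR. The Fabp4 groups did not overlap, at a log2 fold change of -1.06 ± 0.33 (edgeR adjusted p = 0.024), and this call was lost when Sham day 1 plate 1, 2 or 3 was left out.

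Gpihbp1 stood at 1356, 1239, 1335 and 1212 CPM in the Sham day 1 plates and from 570.5 to 1462 CPM, median 924 CPM, in the IR day 1 plates. Of the 8 IR plates 7 were below all sham plates and 1 above them, and the log2 fold change of -0.58 ± 0.33 missed the threshold (edgeR adjusted p = 0.234). Meox2 read 219, 260, 151 and 43.3 CPM in sham and from 0 to 168 CPM, median 94.9 CPM, in IR. These groups overlapped (log2 fold change -1.19 ± 0.47, edgeR adjusted p = 0.0795), and Meox2 passed the threshold when Sham day 1 plate 4 was left out.

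**Figure D2:**
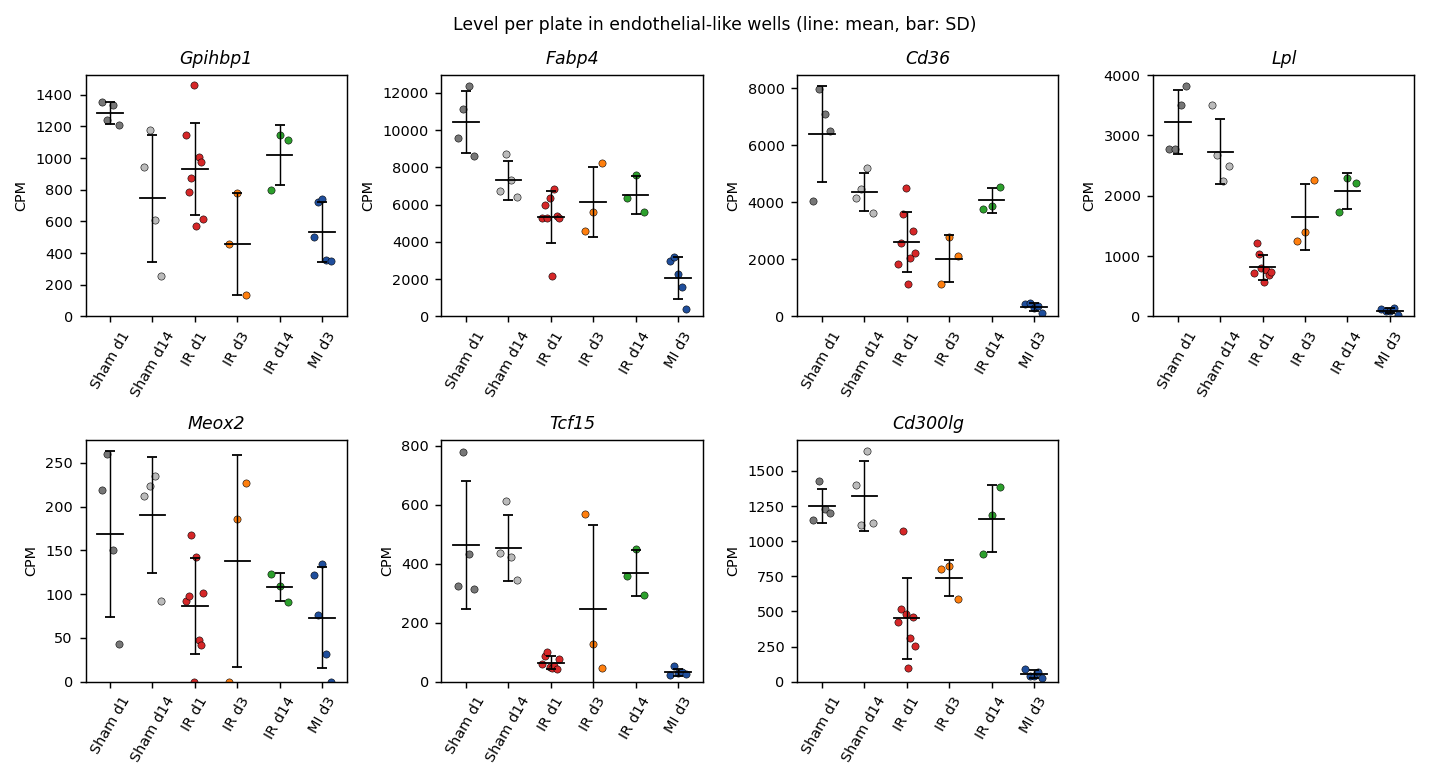
Level of each of the 7 genes in endothelial-like wells (CPM, 1 point per plate) by surgery and day, where lines are group means and bars SD. The 5 MI plates lie below all 8 sham plates for Fabp4, Cd36, Lpl, Tcf15 and Cd300lg, and the 3 plates of IR day 14 overlap with the sham plates of that day for Lpl, Tcf15 and Cd36.

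At day 14 after IR none of the 7 genes passed the test against the sham plates of the same day. Lpl read 3504, 2683, 2250 and 2493 CPM in the Sham day 14 plates and 1736, 2289 and 2205 CPM in the IR day 14 plates. Tcf15 read 438, 612, 422 and 346 CPM in sham and 359, 450 and 296 CPM after IR. Cd36 read 4134, 4472, 5202 and 3624 CPM in sham and 3758, 3884 and 4547 CPM after IR. For each of these 3 genes the plates of both groups overlapped.

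The log2 fold changes at day 14 lay between -0.71 for Meox2 and 0.48 for Gpihbp1, and the lowest adjusted p was 0.924. By edgeR's quasi-likelihood test 0 of the 7 genes and 0 of 3386 genes in all passed, beside 195 genes at an unadjusted p under 0.05 and 0 calls by DESeq2. The difference between the day 1 and the day 14 effect was tested as an interaction and passed for Tcf15, at -2.68 ± 0.49 (edgeR adjusted p = 0.0162), and for Lpl, at -1.77 ± 0.42 (edgeR adjusted p = 0.0368), with 1.12% of all genes called in that direction. The interaction for Lpl lost its call in 14 of 27 fits that each left out 1 plate, and that for Tcf15 without IR day 14 plate 2. Neither was called with a replicate block (0 genes in all), with classes from marker counts, in the larger endothelial-like cluster alone or with wells of over 1% cardiomyocyte markers left out (edgeR adjusted p = 0.202 for both). Between the sham days none of the 7 genes passed, the nearest being Gpihbp1, at 1212 to 1356 CPM on day 1 and 254 to 1177 CPM on day 14 (log2 fold change 0.84, edgeR adjusted p = 0.472), where the plates did not overlap. In that comparison edgeR called 0 genes, with 335 at an unadjusted p under 0.05 and 27 by DESeq2.

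At day 3 after IR, Cd36 and Tcf15 were lower than in the sham plates, 2 of the 7 genes where 0.886% of all genes were called lower. The 3 IR day 3 plates with enough wells held 5 to 12 endothelial-like wells each. Cd36 read 1140, 2768 and 2132 CPM in them, below all 8 sham plates, at a log2 fold change of -1.52 ± 0.39 (edgeR adjusted p = 0.0281). Tcf15 read 570, 127 and 45.4 CPM, with 1 plate inside the sham range and the others below it, at -1.71 ± 0.44 (edgeR adjusted p = 0.0281). The Cd36 call was lost without any single one of the 3 IR plates, and the Tcf15 call without IR day 3 plate 4 or 7 or Sham day 1 plate 2.

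Cd300lg, at 798, 822 and 590 CPM, also lay below all 8 sham plates at IR day 3 without passing the threshold (log2 fold change -1.01, edgeR adjusted p = 0.178). Lpl read 1254, 1399 and 2268 CPM, the highest of which was within the sham range (log2 fold change -1.09, edgeR adjusted p = 0.0652). Fabp4 at 4562, 5585 and 8210 CPM and Gpihbp1 at 456, 782.5 and 136 CPM overlapped with sham and did not pass. Meox2 ranged from 0 to 227 CPM and did not pass either.

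At day 3 after MI all 7 genes were lower in endothelial-like wells than in sham, where 17.7% of all genes were called lower and the median log2 fold change was 0.06. The order by size was Lpl, Cd300lg, Cd36, Tcf15, Fabp4, Meox2 and Gpihbp1. Lpl read 117, 85.9, 89.5, 143 and 25 CPM in the 5 MI plates, where the lowest of the 8 sham plates held 2250 CPM. The Lpl groups were far apart, with a log2 fold change of -4.93 ± 0.32 (edgeR adjusted p = 2.61e-13).

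Cd300lg read 93.4, 36.8, 37.3, 70.1 and 25 CPM in the MI plates, against a lowest sham plate of 1118 CPM. Its log2 fold change was -4.49 ± 0.38 (edgeR adjusted p = 5.00e-11). Cd36 read 426, 478, 291, 365 and 125 CPM, against a lowest sham plate of 3624 CPM. Its log2 fold change was -3.96 ± 0.36 (edgeR adjusted p = 2.84e-10), and neither gene had an MI plate near a sham plate.

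Tcf15 read 21.6, 52.1, 29.8, 34.3 and 25 CPM in MI, against a lowest sham plate of 314 CPM (log2 fold change -3.80 ± 0.34, edgeR adjusted p = 1.59e-10). Fabp4 read 2990, 3165, 2268, 1584 and 400 CPM, against a lowest sham plate of 6394 CPM (log2 fold change -2.12 ± 0.35, edgeR adjusted p = 1.14e-05). Both were below every sham plate in all 5 MI plates, and Fabp4 still held the highest level of the 7 genes in MI.

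Meox2 and Gpihbp1 showed the smallest differences, and their plates overlapped with sham. Gpihbp1 read 503, 724, 739, 359 and 350 CPM in MI, against 254 to 1356 CPM over the sham plates (log2 fold change -0.96 ± 0.32, edgeR adjusted p = 0.0182). Meox2 read 122, 76.7, 134, 31.3 and 0 CPM, against 43.3 to 260 CPM (log2 fold change -1.27 ± 0.42, edgeR adjusted p = 0.0179). Both calls were lost when MI plate 4 was left out.

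Permanent and temporary ligation were compared directly at day 3. In MI 5 of the 7 genes were lower than in IR, where 2.89% of all genes were called lower: Lpl by a log2 fold change of -3.84 ± 0.35 (edgeR adjusted p = 4.71e-09), Cd300lg of -3.48 ± 0.44 (7.81e-07), Cd36 of -2.44 ± 0.39 (4.90e-05), Tcf15 of -2.08 ± 0.50 (0.0103) and Fabp4 of -1.38 ± 0.40 (0.0446). For Lpl, Cd300lg, Cd36 and Fabp4 all 5 MI plates were below all 3 IR plates, whereas 1 IR plate of Tcf15, at 45.4 CPM, was inside the MI range. Gpihbp1 (0.20, edgeR adjusted p = 0.899) and Meox2 (-1.03, edgeR adjusted p = 0.484) did not pass. The Fabp4 call was lost in 16 of 27 fits that each left out 1 plate, and the Tcf15 call without IR day 3 plate 3 or 4. With classes from marker counts none of the 5 was called and 17 genes were called in all, with -1.17 for Lpl (edgeR adjusted p = 0.826), -2.74 for Cd300lg (0.0520) and -1.70 for Cd36 (0.417), and 3 of the 7 were called with at least 10 wells per plate, at least 2000 UMIs per well, no filter on low counts or only the compared groups. The IR and MI comparisons with sham share sham plates, so their values are given side by side and not as separate support.

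**Figure D3:**
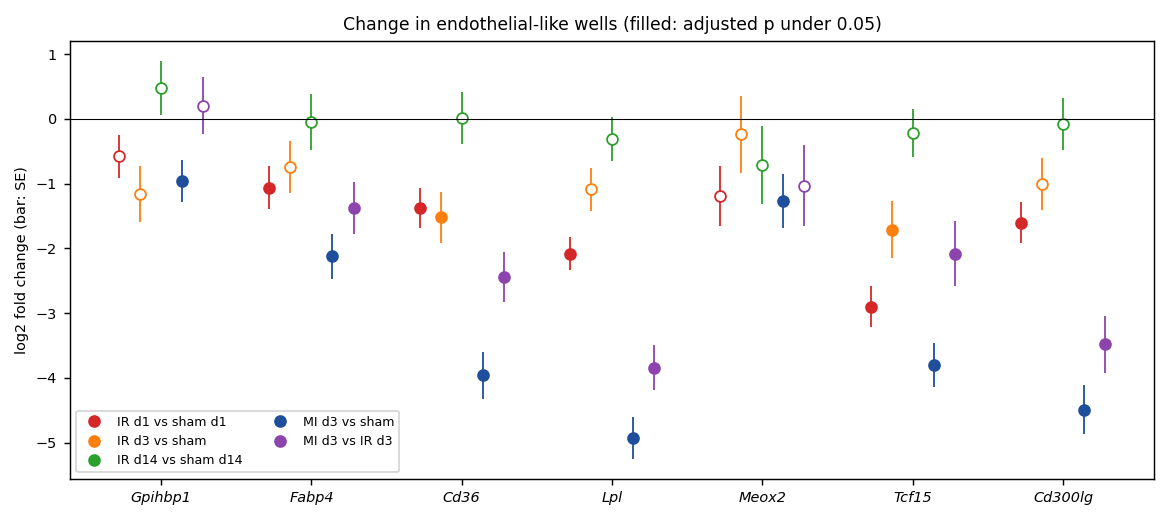
Log2 fold change with SE of the 7 genes in endothelial-like wells for each of 5 comparisons, from edgeR, with filled points for an adjusted p under 0.05. Values reach -4.93 for Lpl at MI day 3 and lie between -0.71 and 0.48 at IR day 14.

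The number of the 7 genes detected together in a well followed the same groups. After thinning to 1000 UMIs, at least 3 of the 7 were present in 92.8% of endothelial-like wells at Sham day 1 and 95.7% at Sham day 14. This share was 58.0% at IR day 1, 82.8% at IR day 3 and 95.7% at IR day 14. In MI it was 37.7%, and 18.9% of MI wells held none of the 7, where the other groups had from 0 to 4.35% of wells with none. For Lpl alone the thinned share was 83.5% at Sham day 1 (95% Wilson interval 74.9 to 89.6, counting error only) and 15.1% in MI (7.9 to 27.1), and without thinning it was 99.0% and 56.6%. For Cd300lg it was 71.1% and 11.3%, and for Tcf15 it was 39.2% at Sham day 1 and 10.1% at IR day 1. These values are shares of wells and were not tested.

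The endothelial-like wells fell into a pair of clusters that differed in their content of the 7 genes and in their share by group. Cluster 4, with 259 wells, was led by Sdpr, Aqp1, Ly6c1, Cav1 and Ptprb, and cluster 11, with 105 wells, by Plvap, Igf2, Vwf and Mcam. Cluster 4 took 95.9% of endothelial-like wells at Sham day 1, 95.7% at Sham day 14, 53.6% at IR day 1, 58.6% at IR day 3, 93.6% at IR day 14 and 3.77% (2 of 53 wells) in MI. Pooled levels in cluster 4 and cluster 11 were 2819 and 234 CPM for Lpl, 5615 and 594 CPM for Cd36, and 1276 and 87.4 CPM for Cd300lg. They were 414 and 35.0 CPM for Tcf15, 9587 and 2756 CPM for Fabp4, 1244 and 496 CPM for Gpihbp1, and 163 and 73.5 CPM for Meox2. The group comparisons above thus pool wells of both clusters in different shares. MI could not be tested against sham within a cluster. Cluster 4 held 2 MI wells, and cluster 11 held 4 Sham day 1 and 3 Sham day 14 wells. The 2 MI wells in cluster 4 read 5970 CPM for Cd36 and 1990 CPM for Cd300lg. In cluster 11 Cd36 stood at 357 CPM in MI, 107 CPM at Sham day 1 and 979 CPM at Sham day 14. The part of the cluster shares in the MI results was not tested.

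Within cluster 4 alone, a comparison added after the data were seen, Tcf15 was the only one of the 7 genes lower at IR day 1 than at Sham day 1, at a log2 fold change of -1.96 ± 0.38 (edgeR adjusted p = 7.60e-04), where 4.79% of 1587 genes were called lower. Its pooled level there was 123 CPM against 474 CPM. Lpl stood at 1880 CPM against 3428 CPM and missed the threshold (log2 fold change -0.87, edgeR adjusted p = 0.0623). Cd36 at -0.14, Fabp4 at -0.16, Cd300lg at -0.23 and Meox2 at -0.73 on the log2 scale did not pass, nor did Gpihbp1, whose value was 0.44. Within cluster 11 alone, Lpl was the only one of the 7 lower in MI than at IR day 3, at -3.55 ± 0.63 (edgeR adjusted p = 0.00521), over 5 MI and 2 IR plates and where 0.718% of 2924 genes were called lower, while Cd300lg had -2.14 (adjusted p = 0.322), Cd36 -1.72 and Fabp4 -1.06.

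**Figure D4:**
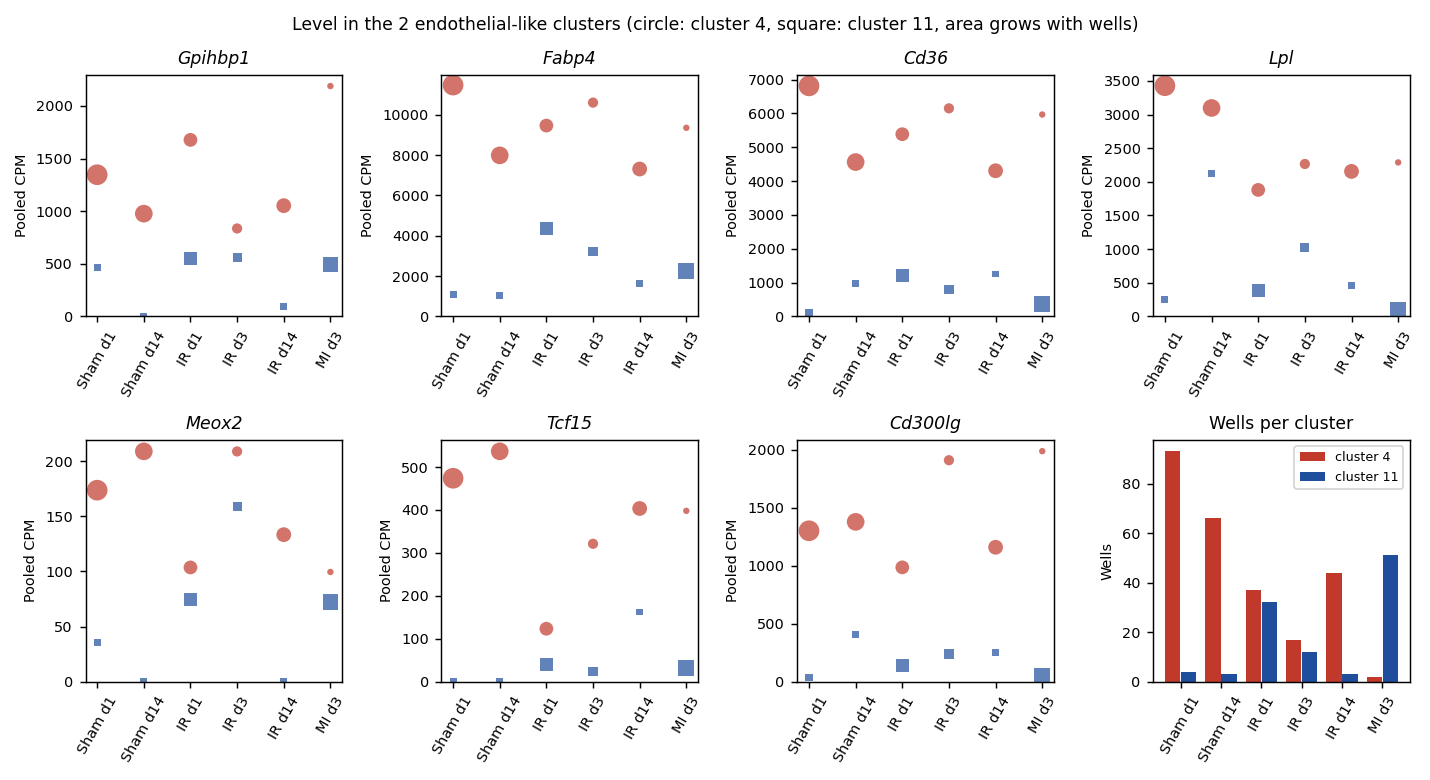
Pooled level of the 7 genes (CPM) by surgery and day in cluster 4 (circles) and cluster 11 (squares), with area growing with the number of wells, and the number of wells per cluster in the last panel. Cluster 4 takes 95.9% of endothelial-like wells at Sham day 1 and 3.77% in MI, and its circles lie above the squares for all 7 genes.

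Cardiomyocyte transcripts were present in endothelial-like wells and moved with the groups. The 10 cardiomyocyte markers took 1.21% of endothelial-like UMIs at Sham day 1, 3.44% at Sham day 14, 0.25% at IR day 1, 1.55% at IR day 3, 2.01% at IR day 14 and 0.04% in MI. Had these transcripts come with the Lpl content of cardiomyocyte-like wells of the same group, they would have carried 53.2% of the endothelial-like Lpl level at Sham day 1, 98.0% at Sham day 14, 29.7% at IR day 1, 119% at IR day 3, 105% at IR day 14 and 0.96% in MI. For Cd36 the same estimate was 1.65% to 9.38% outside MI and 0.25% in MI. In the sham and IR groups the estimate for Lpl is thus a large part of what was measured in endothelial-like wells, and for Cd36 it is a small part.

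In the endothelial-like wells with at most 1% cardiomyocyte markers, Lpl stood at 2368 CPM at Sham day 1 (58 wells), 1009 CPM at Sham day 14 (21 wells), 773 CPM at IR day 1 (65 wells), 321 CPM at IR day 3 (11 wells), 904 CPM at IR day 14 (17 wells) and 117 CPM in MI (53 wells). By the same estimate cardiomyocyte RNA would still carry 34.9% of the Lpl level in these wells at Sham day 1, 50.4% at Sham day 14, 24.1% at IR day 1, 98.1% at IR day 3, 54.7% at IR day 14 and 0.96% in MI, so this filter lowered the carried part in the sham and IR groups without removing it. With the other wells left out, Lpl was lower in MI than in sham, at a log2 fold change of -3.95 (edgeR adjusted p = 1.62e-09), and at IR day 1, at -1.78 (edgeR adjusted p = 1.91e-04). All 7 genes were called in MI in this setting, where 10.3% of 3123 genes were called lower. At IR day 1, 6 were called, where 5.83% of those genes were called lower, and Meox2 came in at -1.58 (edgeR adjusted p = 0.0476) and Gpihbp1 did not pass. IR day 3 had no plate left in it.

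Other transcripts moved with the groups too, as shares of endothelial-like UMIs. Fibroblast markers took 0.053% and 0.06% in the sham groups, 0.139% at IR day 3 and 0.227% in MI, and mural markers 0.058% at Sham day 1, 0.192% at IR day 1 and 0.13% in MI. At IR day 1 neutrophil markers took 0.109% and erythrocyte markers 0.097%, against 0.038% and 0.002% at Sham day 1. Macrophage markers took 0.082% at IR day 3 and 0.074% in MI, against 0.024% and 0.039% in the sham groups. Depth and RNA content also differed between the groups. The median endothelial-like well held 18456 UMIs in MI and 2810 to 4261 UMIs in the other groups, the mitochondrial share was 10.3% in MI and 29.1% to 45.1% elsewhere, and Rn45s was at 21944 CPM in MI, 52326 CPM at IR day 1 and 82115 CPM at Sham day 1. The 10 endothelial markers together took 0.60% of UMIs in MI and 0.626% to 0.83% elsewhere, and 2 of them, Kdr at -1.50 and Ptprb at -1.83, were lower in MI than in sham on the log2 scale. Of the 10, Tie1 (-1.19) was lower at IR day 1, where their median was -0.36, and Egfl7 (-1.68) at IR day 3, where it was -0.55. The part of these markers, depth, Rn45s and mitochondrial share in the results for the 7 genes was not tested.

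Partners of the route were taken from a list of 42 genes, of which 21 were tested in endothelial-like wells. At IR day 1, 2 rose and 5 fell, where 7.94% of all genes were called higher and 9.27% lower. Angptl4, an inhibitor of LPL, rose by a log2 fold change of 2.31 (edgeR adjusted p = 0.0187), and Apln, the ligand apelin, went from a pooled 3.44 CPM at Sham day 1, on 2 UMIs, to 605 CPM on 455 UMIs. Fabp3, the heart fatty acid binding protein, fell by 2.77 on the log2 scale, Acsl1, an acyl-CoA synthetase, by 2.21, Nrp1, a VEGF co-receptor, by 1.06, and Mgll, the monoglyceride lipase, by 0.904. Vldlr, a lipoprotein receptor, fell from a pooled 84.4 CPM on 49 UMIs to 3.99 CPM on 3 UMIs. The median over the 21 was -0.80 and over all genes 0.01. Fabp3, Vldlr and Acsl1 are at higher levels in cardiomyocyte-like wells (2754, 539 and 336 CPM at Sham day 1), and by the estimate above cardiomyocyte RNA would carry 54.9%, 87.8% and 51.5% of their endothelial-like levels at Sham day 1. Their values move with that RNA, and its part was not tested.

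In MI 2 of the 21 partners rose against sham, Apln by 4.43 and Angptl4 by 2.27 on the log2 scale (edgeR adjusted p = 0.00231 for Angptl4), and 11 fell, where 19.1% of all genes were called higher and 17.7% lower. The uptake and transfer genes among them were Fabp3 (1.89 CPM in MI against 689 and 1069 CPM in the sham groups), Vldlr (log2 fold change -4.16), Acsl1 (-2.51) and Cav1 (-1.04), 4 of 7 tested. Of these, Fabp3, Vldlr and Acsl1 again move with cardiomyocyte RNA, which was at 0.04% in MI, and by the estimate above would carry 78.6%, 112% and 73.4% of their levels at Sham day 14. The regulators were Pparg (-2.37), the nuclear receptor of lipid genes, Vegfb (-2.16), Nrp1 (-0.98) and Flt1 (-0.77), 4 of 7 tested, of which Vegfb would be carried to 45.7% at Sham day 1 and 67.8% at Sham day 14. The storage and lipolysis genes were Lipe (-3.47), Pnpla2 (-1.71) and Mgll (-1.59), 3 of 4 tested, of which Pnpla2 would be carried to 25.4% and 30.2%. For Cav1, Pparg, Nrp1, Flt1, Lipe and Mgll the estimate was at most 5.89% in either sham group. Of the 3 tested genes of LPL maturation and inhibition, Angptl4 was the only one called. At IR day 3 Apln was higher (4.03), where 1.62% of all genes were called higher, and Mgll lower (-1.69), where 0.886% were called lower, at IR day 14 none of the 21 passed, and between MI and IR day 3 Fabp3 was the only one called, and lower.

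Other genes of capillary endothelium also fell, beside the shares of all genes given above (9.27% lower at IR day 1, and 19.1% higher and 17.7% lower in MI). Of 8 capillary genes outside the 7, 5 were lower at IR day 1, 3 at IR day 3, 0 at IR day 14 and 8 in MI, among them Timp4 (-5.07), the glycerol channel Aqp7 (-4.74), Rgcc (-2.85), the carbonic anhydrase Car4 (-2.78) and the water channel Aqp1 (-2.34). Of 6 arterial genes, 2 were higher in MI (Mgp at 2.01 and Gja4 at 1.88) and 2 lower (Hey1 at -2.43 and Sox17 at -1.54). Of 6 venous genes, 2 were higher in MI, Plvap at 3.06 and the adhesion molecule Selp at a pooled 230 CPM against 12.1 and 3.31 CPM in the sham groups, and Selp was also higher at IR day 1, at 118 CPM. All 3 tested genes of dividing cells, Cdk1, Top2a and Mki67, were higher in MI, with Mki67 at a pooled 352 CPM against 6.89 and 62.9 CPM in the sham groups, as was the single tested lymphatic gene, Flt4 (1.29), and none of 3 endocardial genes passed in any of these comparisons.

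In cardiomyocyte-like wells, Lpl and Cd36 were lower at day 1 after IR and did not pass the test at days 3 and 14. Lpl read 14490, 8887, 13349 and 12819 CPM in the Sham day 1 plates and from 699 to 4678 CPM, median 2036 CPM, in the 8 IR day 1 plates. Cd36 read 1732, 1472, 2324 and 1536 CPM in sham and from 163 to 681 CPM, median 385 CPM, in IR. All 8 IR plates were below all 4 sham plates for both genes. The log2 fold change was -2.82 ± 0.50 for Lpl (edgeR adjusted p = 4.55e-05) and -2.48 ± 0.44 for Cd36 (edgeR adjusted p = 4.73e-05). These are 2 of the 5 genes of the 7 that could be tested in this class, where 18.7% of all 3860 genes were called lower and the median of all genes was -0.52. DESeq2, which also called Lpl (-2.31) and Cd36 (-1.86), called 308 genes lower and 447 higher where edgeR called 723 lower and 252 higher. Tcf15 and Meox2 were too scarce in cardiomyocyte-like wells to be tested.

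The cardiomyocyte-like wells of IR day 1 stood apart in other ways. Cardiomyocyte markers took 2.91% of their UMIs, against 8.81% to 11.5% in the sham and other IR groups, and the ribosomal RNA precursor Rn45s took 382430 CPM, against 183186 to 254183 CPM. Of the 92 wells, 52 fell in a cluster led by Rhox8, Lars2, 5430440P10Rik and Rn45s. That cluster took 89 of 232 wells at Sham day 1, 125 of 208 at Sham day 14 and 17 of 299 at IR day 3. It took 59 of 348 wells at IR day 14 and 1 of 19 in MI. Cardiomyocyte-like wells thus pool clusters in different shares by group, and the part of this in the results was not tested. Of the 92 wells, 61 had under 3% markers. With such wells left out, an alternative chosen after the data were seen, Lpl had a log2 fold change of -2.20 ± 0.54 (edgeR adjusted p = 0.00414) and Cd36 of -2.10 ± 0.47 (edgeR adjusted p = 0.00143), over 4 IR plates, where 11.2% of 2580 genes were called lower. The pooled Lpl level in that setting was 3801 CPM at IR day 1 and 12944 CPM at Sham day 1.

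At day 3 after IR, Lpl read 1288, 11889, 9280, 13480 and 11492 CPM in the 5 plates, where the lowest plate held 5 cardiomyocyte-like wells. At day 14 it read 12596, 11469 and 10115 CPM after IR and 8886, 8140, 11298, 10458 and 12341 CPM in sham. Apart from the lowest plate, these values overlapped with sham. None of the 5 genes passed at either day by edgeR's quasi-likelihood test, where 2.88% and 0.0518% of all genes were called in either direction, and the nearest was Cd300lg at IR day 3, at a log2 fold change of -1.94 (adjusted p = 0.0860). At IR day 3 some were called with wells of under 3% markers left out, with at least 10 wells per plate or without the filter on low counts. Those counts are given in the last section, and over the alternatives 81 to 316 genes were called in all. The difference between the day 1 and day 14 effects passed for Lpl, at -3.09 (edgeR adjusted p = 0.00653), and for Cd36, at -2.93 (edgeR adjusted p = 0.0033), with 10.9% of all genes called in that direction. Neither was called with a replicate block, under which all genes called went from 514 to 38.

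After MI, 19 cardiomyocyte-like wells were kept, with pooled levels of 150 CPM for Lpl and 132 CPM for Cd36. Only 1 plate had at least 5 such wells, with 139 CPM for each gene in 6 wells, and this lone plate was taken to vary as plates of the other groups do. The p-values of this fit therefore rest on the spread of the other groups and have no replicate check in MI. In it Lpl was lower than in sham by a log2 fold change of -6.95 ± 1.50 (edgeR adjusted p = 0.00159) and Cd36 by -4.07 ± 1.08 (edgeR adjusted p = 0.00753), where 8.78% of all genes were called lower. Against IR day 3 the values were -6.47 for Lpl (edgeR adjusted p = 0.0121) and -3.59 for Cd36 (edgeR adjusted p = 0.0328), with 4.22% of all genes called lower. The MI cardiomyocyte-like wells also stood apart in quality, with a median mitochondrial share of 5.83% against 74.8% to 86.7% in the other groups, a median of 8820 against 1748 to 2436 UMIs, Rn45s at 36865 CPM against 183186 to 382430 CPM, and markers at 5.89% of UMIs, and the part of these in the Lpl and Cd36 values was not tested. With wells of under 3% markers left out and at least 3 wells per plate, 3 MI plates gave -6.78 for Lpl and -4.26 for Cd36 against sham, and Fabp4 (-3.08) and Cd300lg, which had 0 UMIs in all 19 MI wells, were called as well, where 30.7% of the 2580 genes tested in that setting were called lower.

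**Figure D5:**
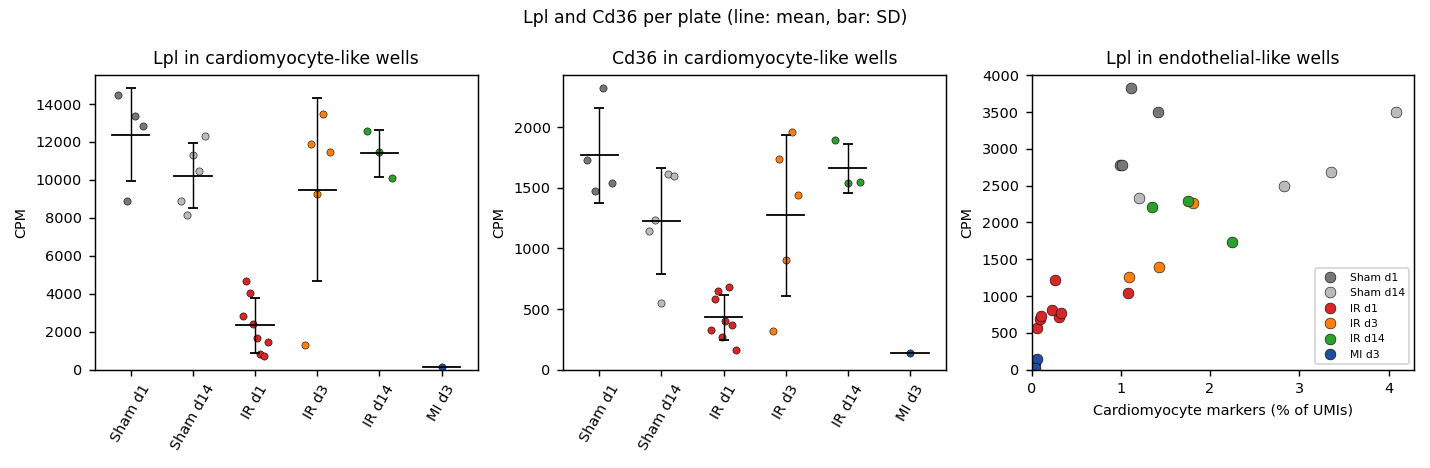
Lpl and Cd36 in cardiomyocyte-like wells (CPM per plate, line for the mean and bar for the SD) by surgery and day, and Lpl in endothelial-like wells (CPM) against the share of cardiomyocyte markers in them (percent of UMIs), 1 point per plate, with Sham day 14 plate 7 shown without its repeat. In cardiomyocyte-like wells Lpl lies between 699 and 4678 CPM at IR day 1, below the 8887 to 14490 CPM of Sham day 1, and in endothelial-like wells the 5 MI plates and 7 of the 8 IR day 1 plates have a marker share of at most 0.328%, below all other plates.

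Of the partners, 10 of 21 tested in cardiomyocyte-like wells were called lower at IR day 1 and 0 higher, where 18.7% of all genes were called lower. They included the fatty acid transporter Slc27a1 (-3.03), Acsl1 (-2.26) and Fabp3 (-1.56), beside the median of all genes of -0.52, while Plin2, which coats lipid droplets, had 1.49 and missed the threshold (edgeR adjusted p = 0.0622). At IR day 3 1 was higher where 2.88% of all genes were called in either direction and at IR day 14 none passed.

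Pooled over all groups, macrophage-like and fibroblast-like wells carried Fabp4, Cd36 and Lpl at lower levels than endothelial-like wells. In MI, however, Lpl stood at 443 CPM in macrophage-like and 147 CPM in fibroblast-like wells, against 117 CPM in endothelial-like wells. At IR day 3 it stood at 1840 CPM in macrophage-like and 1536 CPM in endothelial-like wells. Only Fabp4, Cd36 and Lpl, 3 of the 7 genes, could be tested in macrophage-like and fibroblast-like wells. In macrophage-like wells all 3 were lower in MI than at IR day 3, where 4.62% of 5088 genes were called lower. Lpl ran from 670 to 2176 CPM, median 1137 CPM, in the IR plates and read 436, 604, 266, 323 and 580 CPM in the MI plates. The Lpl groups did not overlap, at a log2 fold change of -1.53 ± 0.46 (edgeR adjusted p = 0.0313). The plates of both other genes overlapped, for Fabp4 at 49.7 to 306 CPM in MI and 0 to 655 CPM in IR (-1.61 ± 0.46, edgeR adjusted p = 0.0226) and for Cd36 at 139.7 to 376 CPM and 106 to 1161 CPM (-1.44 ± 0.45, edgeR adjusted p = 0.0365). Of 24 fits that each left out 1 plate, the call was lost in 5 for Lpl, 6 for Fabp4 and 9 for Cd36, and without IR day 3 plate 4 or 7 or MI plate 1, 3 or 4 none of the 3 was called. Cardiomyocyte markers took 0.39% of macrophage-like UMIs at IR day 3 and 0.05% in MI, and by the estimate above would carry 24.9% and 0.29% of the Lpl level. Endothelial RNA moved as well, with the 10 endothelial markers, all detected, at 0.039% of macrophage-like UMIs at IR day 3 (0 to 0.043% by plate) and 0.018% in MI (0.009% to 0.038%). At the Fabp4 content of endothelial-like wells it would carry 65.9% and 50.8% of the Fabp4 level, and for Cd36 17.2% and 3.81%. The part of either RNA in these calls was not tested. At IR day 1 none of the 3 passed by edgeR against sham, the nearest being Cd36 at -1.61 (adjusted p = 0.0761), while DESeq2 called 1 of the 3, and edgeR called 2.61% of all genes in either direction and had 835 at an unadjusted p under 0.05.

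In fibroblast-like wells Lpl read 1978, 1309 and 2618 CPM in 3 Sham day 1 plates and from 100.1 to 208 CPM in 5 IR day 1 plates, which did not overlap. At IR day 1 Lpl was lower by a log2 fold change of -3.52 (edgeR adjusted p = 4.25e-06) and Cd36 by -2.89 (0.0200), where 9.05% of 5714 genes were called lower. edgeR also called Fabp4 (-1.93, adjusted p = 0.0425), but its plates overlapped, from 0 to 384.3 CPM in sham and from 17.2 to 100.1 CPM in IR, and 1 sham plate held 27 UMIs where the others held 1 and 0. Without that plate, Sham day 1 plate 3, Lpl was the only one of the 3 still called. In the 5 MI plates Lpl ran from 81.6 to 202 CPM. There Cd36 (-3.60) and Lpl (-3.48) were lower than in sham, with 5.48% of all genes called lower, and lower than at IR day 3 (-3.72 and -2.63), with 4.15%. By edgeR 0 of the 3 passed at IR day 3, also at an unadjusted p under 0.05, where 0.98% of all genes were called in either direction. In the comparisons of MI and IR day 3 with sham, both sham days weighed equally, and Sham day 14 had only 1 fibroblast-like plate, of 8 wells. That plate read 235 CPM for Cd36 and 1842 CPM for Lpl, where Cd36 ran from 36.4 to 171 CPM at Sham day 1. Cardiomyocyte RNA in fibroblast-like wells would carry 35.5% to 95.9% of the Lpl level outside MI and 0.77% in MI. For Cd36 it would carry 42.2% to 112% outside MI, so the values for both genes in fibroblast-like wells move with it, and its part was not tested. Endothelial RNA, by the same kind of estimate, would carry 157% of the Cd36 level at Sham day 1 and 138% in MI, and 198% of the Fabp4 level at Sham day 1, and its part was not tested either.

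Across 95 libraries, each a class on a plate, the genes most like each of the 7 were named by Pearson's r of log2(CPM + 1) among 3654 genes with a mean of at least 50 CPM. The libraries of a plate share its depth and cell mix, and the values are given as a description. Gpihbp1 was most like Robo4 (0.870), Rasip1 and Gpr116, Fabp4 most like Egfl7 (0.825), Arhgef15 and Eltd1, and Tcf15 most like Ushbp1 (0.865), Cyp4b1 and Eltd1. Meox2 was most like Cd200 (0.801), Nos3 and Tek, and Cd300lg most like Tcf15 (0.812), Tie1 and Sox18. Cd36 was most like Qk (0.754), Unc45b and Lmo7, and Lpl most like the sarcomere genes Ttn (0.889) and Myh6 (0.883) and the mitochondrial creatine kinase Ckmt2 (0.863).

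Within the 27 endothelial-like libraries, across 4024 genes, Lpl was most like Cd300lg (0.956), Mb (0.951) and Fabp3 (0.944), and Cd36 was close to Lpl (0.941) and Cd300lg (0.932). Fabp4 and Cd36 had an r of 0.905. Gpihbp1 and Meox2 stood apart from the rest of the 7, with r of 0.115 to 0.498 and 0.115 to 0.481 to the other members. Mb and Fabp3, near Lpl in this list, are cardiomyocyte transcripts. Mb was also near Cd300lg (0.932), and Tcf15 was most like Slc25a4 (0.885), Adprhl1 (0.884) and Eno3 (0.883).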

How the data were processed

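SORT-seq libraries of 36 plates were analysed from the tables of UMI counts that the authors deposited, 1 table per plate with genes in rows and wells in columns. Per the submitters' processing notes, reads were mapped with BWA to GRCm38 (mm10). The BWA version is not given in the sources used here. All values were whole numbers, and the highest, 4096, is the number of distinct UMIs of 6 bases, so the most abundant transcripts of deep wells may be saturated. Plate totals, mitochondrial and spike-in counts included, ran from 176614 to 5551870 UMIs.

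Mitochondrial (37) and spike-in (91) rows were left out, which left 20720 genes, and wells with under 1000 UMIs were dropped. No doublet caller was run, since cells had been sorted 1 per well. Wells repeated between plates were searched over 1260 ordered plate pairs. Sham day 14 plates 2 and 7 were averaged into 1 plate for the fits, and plate 2 was left out of pooled levels. The other flagged wells stayed in, except in an alternative fit of endothelial-like and cardiomyocyte-like wells. Wells were scaled to 10000 counts and clustered with scanpy 1.11.5 and leidenalg 0.10.2 (2000 variable genes, 30 components, 15 neighbours, resolution 1, seed 1), with the 7 genes left out. Clusters were named from marker lists. Those with too few markers, with a second list close behind, or with leading genes or depth that went against the name stayed unnamed.

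Counts were summed per plate and class (at least 5 wells) and fitted with edgeR 4.0.16 in R 4.3.3 (TMM scaling, low counts filtered, all groups of a class in 1 fit, quasi-likelihood test with Benjamini-Hochberg adjustment over all genes tested). DESeq2 1.42.0 was an alternative. The steps were tested on simulated data. A CPM value is a gene's count scaled to 1000000 UMIs of that class and plate. Likeness used log2(CPM + 1). All 7 genes were named, together with the partners called in endothelial-like wells, 4 partners in cardiomyocyte-like wells (Fabp3, Slc27a1, Acsl1 and Plin2) and called genes of the lists of capillary, arterial, venous, lymphatic and endocardial endothelium and of dividing cells. The 7 genes and all lists were chosen with earlier results of these data known. Alternatives included other minimum numbers of wells and UMIs, other scalings, other class definitions and leaving out each plate. Plates are the replicates, and nothing in the labels ties a plate to a mouse. Promoter sequences are from RefSeq (GRCm38.p6).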

Additional observations from a re-analysis of the deposited data

Results flagged for a closer look

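Of 40 sets of 4 to 10 plates examined, 4 had a plate far from the others by Dixon's criterion, and chance alone marks about 5% of sets. In endothelial-like wells, Fabp4 stood at 2187 CPM in IR day 1 plate 6, where the other 7 plates ran from 5258 to 6847 CPM. Meox2 stood at 92.3 CPM in Sham day 14 plate 8, where the others ran from 212 to 234 CPM. Cd300lg stood at 1073 CPM in IR day 1 plate 4, where the others ran from 95.1 to 515 CPM. In cardiomyocyte-like wells, Fabp4 stood at 599 CPM in Sham day 14 plate 5, where the others ran from 46.1 to 206 CPM.

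The effect of IR at day 1 differed from that at day 14 by the edgeR interaction test in 4 cases. The differences were -1.77 for Lpl and -2.68 for Tcf15 in endothelial-like wells and -3.09 for Lpl and -2.93 for Cd36 in cardiomyocyte-like wells, on the log2 scale. None of the 4 was called with a replicate block. Lpl in endothelial-like wells also lost its call in 14 of 27 fits that each left out 1 plate.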

How the results depend on the processing

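The replicate numbers did not pair the plates, since same-numbered plates of different groups had a median correlation of deviations of 0.004 (36 pairs, -0.072 to 0.108, 1 over 0.1) and other plates 0.001. With a replicate block, all genes called in endothelial-like wells went from 583 to 226 at IR day 1, from 85 to 66 at IR day 3 and from 47 to 0 in the day 1 against day 14 interaction. They went from 514 to 38 in the interaction in cardiomyocyte-like wells and from 488 to 174 in MI against IR day 3 in macrophage-like wells. In fibroblast-like wells at IR day 1 they went from 1188 to 305. Under the block, the number of the 7 genes called went from 5 to 3 at IR day 1, from 2 to 1 at IR day 3 and from 2 to 0 in the day 1 against day 14 interaction in endothelial-like wells. It went from 2 to 1 in MI against IR day 3 and from 2 to 0 in the interaction in cardiomyocyte-like wells, from 3 to 1 in MI against IR day 3 in macrophage-like wells, and from 3 to 1 at IR day 1 in fibroblast-like wells.

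In endothelial-like wells at IR day 1, 3 genes were called with classes taken from marker counts and 1 in cluster 4 alone, where 4.79% of 1587 genes were called lower. Cluster 11 alone had 1 Sham day 1 plate, so its count is left out. The number of all genes called also changed with the setting, over the ranges given below. The cluster settings and the 3% setting were chosen after the data were seen. At IR day 3, where 2 were called, there were 0 with at least 10 wells per plate, 0 with at least 2000 UMIs per well, 0 with classes from marker counts, 0 with Sham day 14 alone as control, 0 in cluster 4, 1 without the filter on low counts, 1 with only the compared groups in the fit, and 5 with the 7 genes among those clustered. Of all genes, 3 were called in cluster 4 and 497 with the 7 genes clustered, against 85 as reported. For MI against IR day 3, where 5 were called, there were 3 with at least 10 wells per plate, 3 without the filter, 3 with at least 2000 UMIs, 3 with only the compared groups, 0 with classes from marker counts and 1 in cluster 11. Of all genes, 17 were called with classes from marker counts, and in cluster 11 0.718% of 2924 were called lower. For the interaction, 1 was called with at least 10 wells, without the filter or with at least 2000 UMIs, and 0 with classes from marker counts, with wells of over 1% cardiomyocyte markers left out or in cluster 4. In cardiomyocyte-like wells the calls went from 0 to 1 at IR day 3 with at least 10 wells or without the filter, from 0 to 2 with wells of under 3% markers left out, from 2 to 4 in MI against sham in that setting, and from 2 to 1 in MI against IR day 3 without the filter. In macrophage-like wells at IR day 1 they went from 0 to 1 with RLE scaling or DESeq2. The cause of these changes was not tested.

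Some directions turned. On the log2 scale Gpihbp1 had 0.44 at IR day 1 and 0.03 in the interaction in cluster 4, and against IR day 3 in MI it had -0.52 with at least 10 wells, -0.37 with at least 2000 UMIs and -0.04 under the block. Meox2 had 0.01 (at least 10 wells), 0.14 (block) and 0.26 (marker counts) at IR day 3, 0.67 in the interaction under the block and 0.38 in MI against IR day 3 with the 7 genes clustered. Cd300lg had 0.03 at IR day 3 in cluster 4. In cluster 11, with 1 Sham day 1 plate, IR day 1 gave 1.74 for Fabp4, 4.82 for Cd36, 0.36 for Lpl, 0.44 for Meox2 and 1.53 for Cd300lg.

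With 1 plate left out at a time, in endothelial-like wells 4 to 6 genes were called at IR day 1, 0 to 3 at IR day 3, 5 to 7 in MI, 3 to 5 in MI against IR day 3 and 0 to 2 in the interaction, and Gpihbp1 in MI against IR day 3 ran from -0.13 to 1.48. The ranges were 0 to 1 at IR day 3 and 1 to 2 in MI against IR day 3 in cardiomyocyte-like wells, 0 to 1 at IR day 1 and 0 to 3 in MI against IR day 3 in macrophage-like wells, and 1 to 3 at IR day 1 in fibroblast-like wells.

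Over the alternatives the number of all genes called ran from 1 to 674 at IR day 1 (583 as reported), 3 to 497 at IR day 3 (85), 654 to 2086 in MI (1246), 17 to 441 in MI against IR day 3 (129) and 0 to 82 in the interaction (47) in endothelial-like wells, and from 203 to 1796 at IR day 1 (975) in cardiomyocyte-like wells. There edgeR called 252 genes higher and 723 lower, and DESeq2 447 higher and 308 lower. Meox2 and Tcf15 had 546 and 810 UMIs in all, and the 3 plates of IR day 3 had 5 to 12 endothelial-like wells each, which limits what could be seen there.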
